A study of Mus musculus with 4 samples.

Results

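The transcripts examined here encode the components of insulin, AMP-activated protein kinase (AMPK) and mechanistic target of rapamycin (mTOR) signalling in mouse skeletal muscle. The set was defined by gene name, with no measured value: 36 genes from the insulin receptor to the kinases and binding proteins that it controls, matched to array probes by their symbol or an older alias. Of the 36 genes, 35 had a probe, and together they had 80 probes, of 27597 genes or named transcripts on the array. No probe carried the name Irs2. Of these probes, 67 bore the gene's own name or a listed alias and 13 bore an older name that RefSeq lists as a synonym, among them the clone names under which Rptor and Rictor were printed. On all 4 arrays 34 of the genes were well above background, and Foxo3, a transcription factor that Akt holds inactive, was above background on none.

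The study hybridised 1 array for each of 4 genotypes of mice aged 10 weeks with free access to food: WT, TBP-2-/-, ob/ob and ob/ob TBP-2-/-. TBP-2 is an older name of Txnip, the thioredoxin-interacting protein, which restrains the entry of glucose into cells. The TBP-2-/- mice are called Txnip-null here and the ob/ob TBP-2-/- mice the double mutant; the plots name the latter ob/ob Txnip-null. The ob/ob mutation removes leptin and leads to obesity with insulin resistance. Txnip loss was compared in lean mice (Txnip-null minus WT) and in obese mice (double mutant minus ob/ob), and the ob/ob genotype was compared in mice with Txnip (ob/ob minus WT) and without it (double mutant minus Txnip-null). The muscle taken, the strain, the sex, the deleted stretch of Txnip, and whether a sample was 1 mouse or a pool are not stated in the labels. In the ob/ob sample's genotype field the name is spelled Tob/ob, and its title, ob/ob, was used.

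Insulin acts through its receptor and the Irs adaptors on phosphoinositide 3-kinase, which brings Akt to the membrane, where Pdpk1 activates it. Akt then releases glucose transporters through the GTPase-activating proteins Tbc1d1 and Tbc1d4, spares glycogen synthase from Gsk3, excludes FoxO factors from the nucleus and relieves the Tsc1-Tsc2 brake on Rheb and mTOR complex 1. AMPK, a trimer of a catalytic alpha, a scaffolding beta and a nucleotide-sensing gamma subunit activated by Stk11, opposes mTOR when energy is short, and muscle uses both arms to balance glucose uptake against protein synthesis. These steps are regulated largely by phosphorylation, which an array of transcripts does not measure.

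Most of these transcripts differed little between the arrays, and the differences that stood out lay at a small number of positions in the pathway. Ddit4, an inhibitor of mTOR complex 1, was 4.14-fold higher on the double-mutant array than on the ob/ob array. Prkag3, the AMPK gamma subunit of fast glycolytic fibres, was lower without Txnip on both backgrounds, by 2.57-fold in lean and 1.51-fold in ob/ob mice. The Tbc1d1 level of the ob/ob array was 2.98-fold that of the WT array. Irs1 was higher without Txnip and lower with ob/ob, by 1.32-fold to 1.72-fold in the 4 comparisons. Each genotype had a single array, so the pairwise differences have no replicate check and no p-value, and the words higher and lower describe these arrays.

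Signals are the scanner software's processed intensities, and every log2 difference is between levels scaled to each array's 75th percentile, which was 292, 320.0, 321 and 273 on the arrays of WT, Txnip-null, ob/ob and the double mutant. The 75th percentile sets what counts as no difference: scaling to the spike-in RNA instead moved the median of all genes by 0.25 for Txnip loss in lean mice, by -0.51 for Txnip loss in obese mice, by 0.64 for ob/ob with Txnip and by -0.12 for ob/ob without Txnip, so differences are relative to the rest of the transcriptome. Except in the additive fit, a standard error (SE) beside a difference comes from the software's error model. It covers the spots, not the spread between mice. This SE was 0.20 to 0.22 for all 34 genes except Akt1, whose probe was printed repeatedly and had an SE of 0.065. Txnip itself had signals of 13209, 868, 13142 and 166 on the arrays in that order, which is the order used throughout. A second, dimmer Txnip probe had 427, 5.78, 561 and 2.22, and was not above background on the Txnip-null and double-mutant arrays. All 9 markers of muscle fibres were above background on all arrays, with a summed level of 8808 to 9959 times the 75th percentile, and 3 neuronal markers were above background on none. Of 3 hepatocyte markers none was above background on the first 3 arrays and 1 was on the double-mutant array. The tissue is a mixture of cells, so fewer cells of a type and less RNA per cell cannot be told apart.

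**Figure D1:**
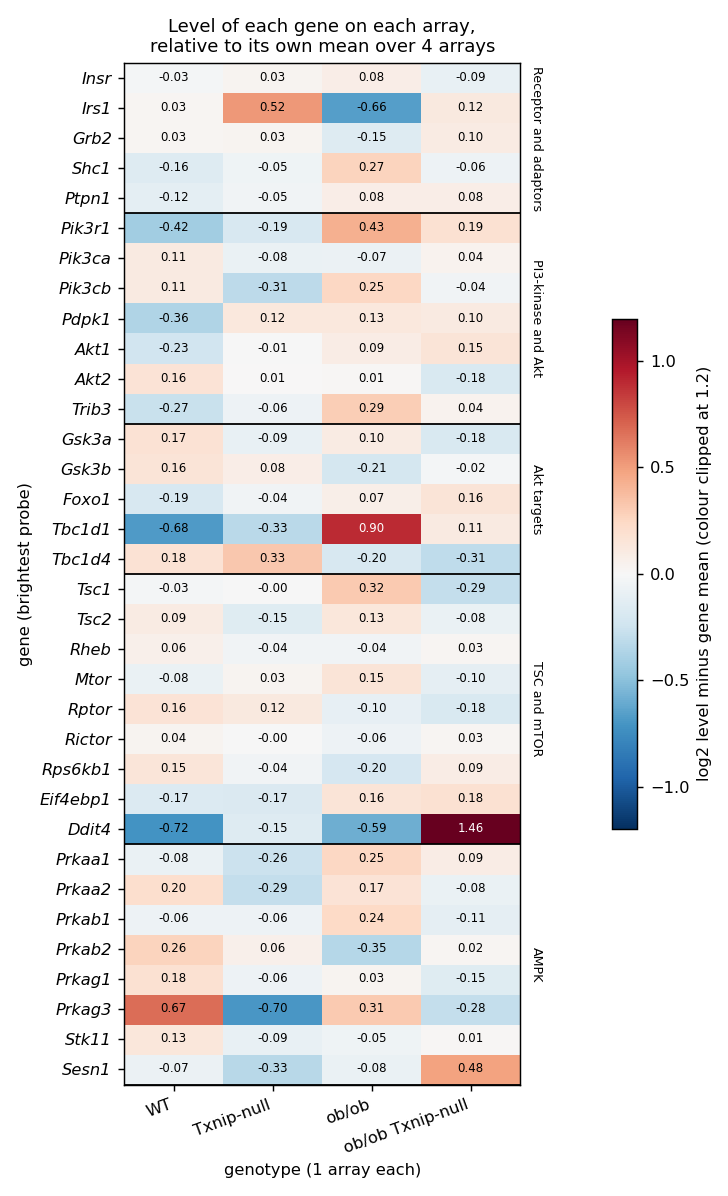
Level of 34 insulin, AMPK and mTOR signalling genes on the 4 arrays, each as log2 of its scaled signal minus that gene's mean over the arrays, grouped by role on the vertical axis. Most cells are pale; the cells furthest from 0 are those of Ddit4 on the double-mutant array (signal 32409) and Tbc1d1 on the ob/ob array (signal 577).

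Counted at 1.5-fold, the genes of the set were different about as often as the genes of the array at large. With Txnip loss in lean mice 0 of 34 were higher and 1 was lower (Prkag3), where 5.91% of 15220 measured genes were higher and 3.29% lower. With Txnip loss in obese mice 2 were higher (Ddit4 and Irs1) and 3 lower (Prkag3, Tbc1d1 and Tsc1), against 6.51% and 3.65% of 15461 genes. For ob/ob with Txnip 2 were higher (Pik3r1 and Tbc1d1) and 2 lower (Irs1 and Prkab2), against 6.34% and 6.63% of 15088 genes. For ob/ob without Txnip 2 were higher (Ddit4 and Sesn1) and 1 lower (Tbc1d4), against 6.39% and 4.91% of 15618 genes. At 2-fold either way each comparison kept a single gene. These were Prkag3 for Txnip loss in lean mice (2.61% of genes), Ddit4 for Txnip loss in obese mice (2.67%), Tbc1d1 for ob/ob with Txnip (3.56%) and Ddit4 for ob/ob without Txnip (3.36%). No gene of the set was higher in both Txnip comparisons (1.71% of 14908 genes) and 1 was lower in both (0.711%). None was higher in both ob/ob comparisons (2% of genes) or lower in both (1.82%). The Txnip difference in obese mice was 1.5-fold or more above that in lean mice for 3 genes (Ddit4, Prkag3 and Sesn1; 7.9% of all genes) and below it for 2 (Tbc1d1 and Tsc1; 6.53%). The median difference of the 34 genes was -0.02, -0.10, 0.01 and 0.07 in the 4 comparisons in that order, beside -0.07, 0.03, -0.04 and 0.04 for all genes measured. These shares lie close to the background, so the results concern single genes and not the set as a whole.

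**Figure D2:**
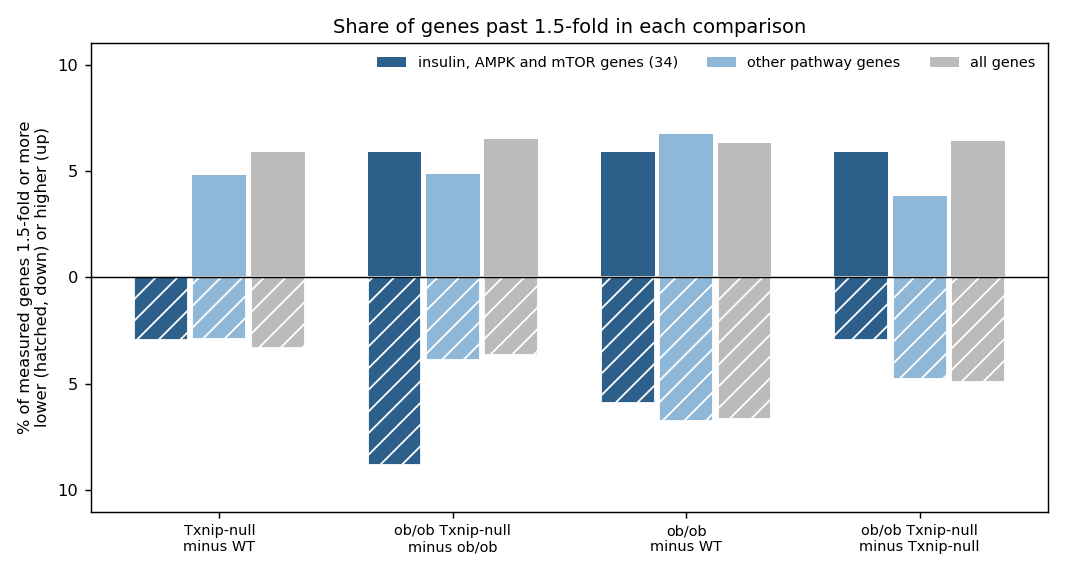
Percent of the insulin, AMPK and mTOR genes, of the other genes of the pathway and of all measured genes that were 1.5-fold or more higher or lower in each of the 4 comparisons. For the 34 signalling genes the shares run from 0% to 8.82%, which is 3 genes.

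The receptor and its adaptors come first. Insr, the insulin receptor, had signals of 382, 436, 453 and 341, and no difference reached 1.5-fold (0.06, -0.17, 0.11 and -0.12 on the log2 scale in the 4 comparisons). A dimmer Insr probe, at 17.2, 21.6, 30.3 and 16.5, gave 0.68 for ob/ob with Txnip and -0.64 for Txnip loss in obese mice. The brighter probe is named D630014A15Rik in the files, a clone name that RefSeq lists as a synonym of Insr, and the dimmer one carries the name Insr itself. The probe named Insr thus passed 1.5-fold in 2 comparisons (1.61-fold and 1.56-fold) and the brighter one in none, with gaps between them under 1.5-fold in each comparison. With listed aliases only, Insr adds to the counts past 1.5-fold, which become 5 for ob/ob with Txnip and 6 for Txnip loss in obese mice.

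Irs1, the docking protein that links the receptor to phosphoinositide 3-kinase, had signals of 6771, 10429, 4595 and 6714, with its probe at chr1:82112141-82112200 on mm8. The lean Txnip-null array was the highest, the ob/ob array the lowest, and the WT and double-mutant arrays lay between them. Irs1 was higher without Txnip in lean mice (0.49 ± 0.20, SE; 1.41-fold) and in ob/ob mice (0.78 ± 0.20; 1.72-fold). It was lower with ob/ob in mice with Txnip (-0.69 ± 0.20; 1.62-fold) and without it (-0.40 ± 0.20; 1.32-fold). A dimmer probe, with signals of 67.8, 80.8, 39.3 and 45.4, gave 0.12, 0.44, -0.92 and -0.60, the same directions. With spike-in scaling the brighter probe's 1.72-fold difference was 0.27 and its 1.62-fold difference was -0.05 on the log2 scale. Adipocyte markers moved with Irs1 in the Txnip comparisons: all 8 were higher without Txnip in lean and in ob/ob mice, their summed level was 206, 312, 135 and 248 times the 75th percentile, and all 8 were above background on every array. Against WT, 5 of these 8 markers were higher and 3 lower in ob/ob, with a median of 0.38. Against Txnip-null, 7 were higher and 1 lower in the double mutant, with a median of 0.52. Irs1 was lower in both ob/ob comparisons, so most of these markers did not move with it there. The lowest marker was Cfd, at -3.38 and -3.12. The summed level, in which bright markers weigh most, put the 4 arrays in the same order as the scaled Irs1 level. In the ob/ob comparisons that order was not the one followed by most single markers. The summed level of 5 fibroblast markers was 270.1, 349.5, 265 and 401, that of 5 macrophage markers 53.9, 69.3, 52.8 and 62.2, and that of 5 Schwann cell markers 3.16, 8.40, 4.92 and 8.78, so each list was higher, relative to the 75th percentile, on the Txnip-null array of a pair. All of these markers were above background on every array. The part of these cells in the Irs1 differences was not tested.

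The stretch of 250 bases before the Irs1 start site is printed because Irs1 was the adaptor with the largest differences and because a palindromic E-box lies in it. It is on the minus strand of chromosome 1, chr1:82291440-82291689 in RefSeq on GRCm38.p6, a later build than that of the probe positions. Capitals mark the E-box CACGTG, which begins 115 bases before the start site.
Irs1: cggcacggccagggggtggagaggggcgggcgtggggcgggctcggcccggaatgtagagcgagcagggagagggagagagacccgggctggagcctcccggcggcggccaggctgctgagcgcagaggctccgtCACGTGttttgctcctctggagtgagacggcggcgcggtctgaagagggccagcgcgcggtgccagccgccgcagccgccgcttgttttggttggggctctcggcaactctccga

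Grb2, the adaptor that leads from the receptor to Ras, had signals of 6365, 7006, 6163 and 6234, with its largest difference 0.25 with Txnip loss in obese mice. Shc1, a second adaptor on that branch, had signals of 80.6, 94.9, 119 and 80.2 and was highest on the ob/ob array (0.43 above WT). Ptpn1, the phosphatase that switches the receptor off, had signals of 2291, 2635, 2879.7 and 2455. None of these 3 transcripts reached 1.5-fold in any comparison.

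Among the genes of phosphoinositide 3-kinase, Pik3r1, the regulatory p85 subunit, stood apart from the catalytic subunits. Its signals were 208, 266, 411 and 295, and its probe lies at chr13:102784708-102784767 on mm8. The ob/ob array was the highest and the WT array the lowest. The ob/ob level of Pik3r1 was 1.80-fold the WT level (0.85 ± 0.21, SE), and 3 further probes gave 1.02, 0.83 and 0.49 for the same comparison. For ob/ob without Txnip the brightest probe gave 0.38, and the 3 others gave 0.22, 0.54 and 0.13. For Txnip loss in obese mice the probes were split, at -0.24 by the brightest and at -0.44, 0.38 and -0.11 by the others. Pik3ca, the catalytic p110 alpha subunit, had signals of 1791, 1712, 1731 and 1594 and differences between -0.20 and 0.13. Pik3cb, the beta isoform, had signals of 117, 96.1, 142 and 98.6 and was lower without Txnip by less than 1.5-fold, at -0.42 in lean and -0.29 in ob/ob mice.

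Akt1, a kinase at the centre of the insulin arm, had signals of 4609, 5901, 6307 and 5626. WT was the lowest of the 4 arrays. Its differences were small and, with repeated spots, had the smallest SE of the set: 0.23 ± 0.065 (SE) for Txnip loss in lean mice, 0.07 ± 0.065 for Txnip loss in obese mice, 0.32 ± 0.065 for ob/ob with Txnip and 0.16 ± 0.065 for ob/ob without Txnip. A second Akt1 probe gave 0.08, 0.10, 0.10 and 0.12 in that order, and the SE does not cover the gap between probes. Akt2, the isoform that drives glucose uptake in muscle, had signals of 5159, 5072, 5103 and 3782, and its differences lay between -0.20 and -0.15. Pdpk1, the kinase that activates Akt, had signals of 788, 1207, 1215 and 1015, with WT the lowest array. Its brightest probe gave 0.48 for Txnip loss in lean mice, where 2 further probes gave -0.22 and -0.04, so the probes did not share a direction. Trib3, a pseudokinase that binds Akt, had signals of 56.9, 72.1, 92.1 and 65.8 and was highest on the ob/ob array, 0.56 above WT, which is within 1.5-fold.

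Of the transcripts for proteins that Akt acts on, Tbc1d1 had the largest difference between ob/ob and WT in the whole set. Tbc1d1 is the GTPase-activating protein that holds glucose transporters inside the muscle fibre until Akt or AMPK phosphorylates it. Its signals were 176, 246, 577 and 283, and its probe lies at chr5:64629070-64629129 on mm8. The ob/ob array stood above the other 3, the double-mutant array came next and the WT array was the lowest. For Tbc1d1 the ob/ob level was 2.98-fold the WT level (1.58 ± 0.20, SE), and the double-mutant level was 1.35-fold the Txnip-null level (0.43 ± 0.20). Loss of Txnip went with a higher level in lean mice (0.35 ± 0.20; 1.28-fold) and a lower level in ob/ob mice (-0.79 ± 0.20; 1.73-fold). The latter difference minus the former was -1.14 ± 0.29, or 2.21-fold, where 1.96% of 14908 genes were 2-fold or more apart in that direction. A second probe, with signals of 88.8, 131, 277 and 151, gave 0.43, -0.64, 1.51 and 0.44 in the 4 comparisons and the same order of arrays.

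Slow fibre markers moved with the ob/ob comparison: 7 of 9 were lower by at least 1.5-fold for ob/ob with Txnip, and 8 of 9 for ob/ob without Txnip. With Txnip loss in obese mice 8 of 9 had a difference below 0 and 3 were lower by at least 1.5-fold, with a median of -0.52 beside 0.03 for all genes; Tbc1d1, Prkag3 and Tsc1 were lower there too. With Txnip loss in lean mice 6 of 9 were below 0 and none was 1.5-fold lower. Their summed level was 2464, 2234, 1575 and 1348 times the 75th percentile, and all 9 were above background on every array. Tendon markers were above background on all arrays too, at a summed level of 1.13, 23.6, 28.9 and 42.1, so the WT array held least. The part of slow fibres and tendon in the Tbc1d1, Tbc1d4, Pik3r1, Irs1, Prkag3, Prkab2, Sesn1 and Tsc1 differences was not tested.

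The sequence before the upstream Tbc1d1 start site is printed because Tbc1d1 had the largest difference between ob/ob and WT. It lies at chr5:64160010-64160259 on the plus strand (GRCm38.p6). Capitals mark the E-box CAGCTG, the form that myogenic factors are known to bind, which begins 231 bases before the start site. The 250 bases before the downstream Tbc1d1 start site, chr5:64230107-64230356, hold none of the 6 motifs searched and are not printed.
Tbc1d1: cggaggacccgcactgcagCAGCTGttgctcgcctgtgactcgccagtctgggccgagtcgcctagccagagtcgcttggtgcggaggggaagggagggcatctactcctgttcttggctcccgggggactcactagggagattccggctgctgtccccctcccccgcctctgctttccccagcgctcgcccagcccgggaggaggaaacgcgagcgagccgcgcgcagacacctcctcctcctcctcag

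Tbc1d4, the related protein also known as AS160, had signals of 201, 245, 171 and 134, with its probe at chr14:100364387-100364446 on mm8. Both ob/ob arrays were lower than both lean arrays. It was 1.55-fold lower in the double mutant than in lean Txnip-null mice (-0.64 ± 0.21, SE), and 2 further probes gave -0.34 and -0.21. In ob/ob minus WT it was lower by less than 1.5-fold (-0.37). By their brightest probes Tbc1d1 was higher and Tbc1d4 lower in both ob/ob comparisons, except that with spike-in scaling Tbc1d4 was 0.27 against WT.

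The remaining substrates of Akt were close to even. Gsk3a, a kinase that inhibits glycogen synthase, had signals of 136, 124, 142 and 99.7, with differences between -0.28 and -0.07. Gsk3b had signals of 149, 155, 126 and 123, and its 2 probes gave opposite directions for ob/ob minus WT, -0.37 and 0.24. Foxo1, the FoxO factor that raises atrophy and fasting genes, had signals of 841, 1019, 1109 and 999, with WT the lowest array and differences between 0.08 and 0.26. Foxo3 is given no difference, since neither of its 2 probes was above background on any array.

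The most divergent member of the set sits upstream of mTOR. Ddit4, also known as Redd1, is a stress-induced and glucocorticoid-induced protein that activates the Tsc1-Tsc2 brake. Its signals were 7668, 12456, 9209 and 32409, from 1 probe at chr10:59345095-59345154 on mm8. The double-mutant array stood above the other 3, followed by the lean Txnip-null array. Ddit4 was 4.14-fold higher without Txnip in ob/ob mice (2.05 ± 0.20, SE) and 1.48-fold higher in lean mice (0.57 ± 0.20). The former difference minus the latter was 1.48 ± 0.29, or 2.79-fold, where 1.66% of 14908 genes were 2-fold or more apart in that direction. The ob/ob genotype went with a difference of 0.13 in mice with Txnip and of 1.61 in mice without it. With spike-in scaling the difference in ob/ob mice was 1.54. The markers of adipocytes, fibroblasts, macrophages and Schwann cells also had higher summed levels on both Txnip-null arrays, as given for Irs1. By the summed levels given for Tbc1d1, tendon markers were highest and slow fibre markers lowest on the double-mutant array. The part of all these cells and fibres in the Ddit4 difference was not tested.

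The Ddit4 sequence is printed because it had the largest difference of the 34 genes; none of the 6 motifs searched lies in it. It is on the minus strand at chr10:59951771-59952020 (GRCm38.p6).
Ddit4: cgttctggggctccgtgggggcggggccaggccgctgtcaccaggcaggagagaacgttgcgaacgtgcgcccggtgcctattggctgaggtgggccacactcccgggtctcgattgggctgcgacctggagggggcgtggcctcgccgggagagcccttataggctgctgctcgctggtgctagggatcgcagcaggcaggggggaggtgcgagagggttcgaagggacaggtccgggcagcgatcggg

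Sesn1, a sestrin that restrains mTOR complex 1 when leucine is short and engages AMPK, had signals of 3225, 2950.2, 3518 and 4417, with its probe at chr10:41596609-41596668 on mm8. The double-mutant array was the highest and the lean Txnip-null array the lowest. The double-mutant level of Sesn1 was 1.76-fold the Txnip-null level (0.81 ± 0.20, SE), and 2 further probes gave 0.82 and 0.79. In ob/ob minus WT the brightest probe gave -0.01 and the others 0.46 and 0.83. The probes therefore shared the ob/ob difference in mice without Txnip and not in mice with Txnip. For Txnip loss the brightest probe gave -0.26 in lean and 0.56 in obese mice. The others gave -0.09 and 0.05 in lean mice, and 0.28 and 0.01 in obese mice. The gap between backgrounds for which Sesn1 was counted above is that of the brightest probe.

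Tsc1, the hamartin subunit of the brake, had signals of 586, 651, 815 and 456, with its probe at chr2:28512471-28512530 on mm8. That probe was 1.52-fold lower with Txnip loss in obese mice (-0.60 ± 0.20, SE), while 3 further probes gave 0.08, -0.16 and 0.19, and the median over the gene's probes was -0.04. The Tsc1 difference thus rested on a single probe. Tsc2, its partner, had signals of 8191, 7571, 9219 and 6784, with differences between -0.24 and 0.07.

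Downstream of the brake the transcripts lay close together. Rheb, the GTPase that turns mTOR on, had signals of 11606, 11867, 11881 and 10615, with no difference beyond 0.10 in size. Mtor, the kinase, had signals of 572, 678, 736 and 525, and a dimmer probe with signals of 71.3, 76.3, 92.1 and 102 gave 0.65 for ob/ob without Txnip, where the brighter gave -0.14. Rptor, the scaffold of complex 1, had signals of 1430.3, 1520.3, 1312 and 1053, and Rictor, that of complex 2, had 94.8, 101, 97.3 and 87.9. Rptor had differences of -0.26 and -0.30 in the ob/ob comparisons, within 1.5-fold, and those of Rictor stayed within 0.10. Rps6kb1, the S6 kinase, had signals of 775, 745, 667 and 695, and Eif4ebp1, the translation repressor that mTOR inactivates, had 8430.5, 9174, 11585 and 9999. Eif4ebp1 was higher in both ob/ob comparisons, also by less than 1.5-fold.

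**Figure D3:**
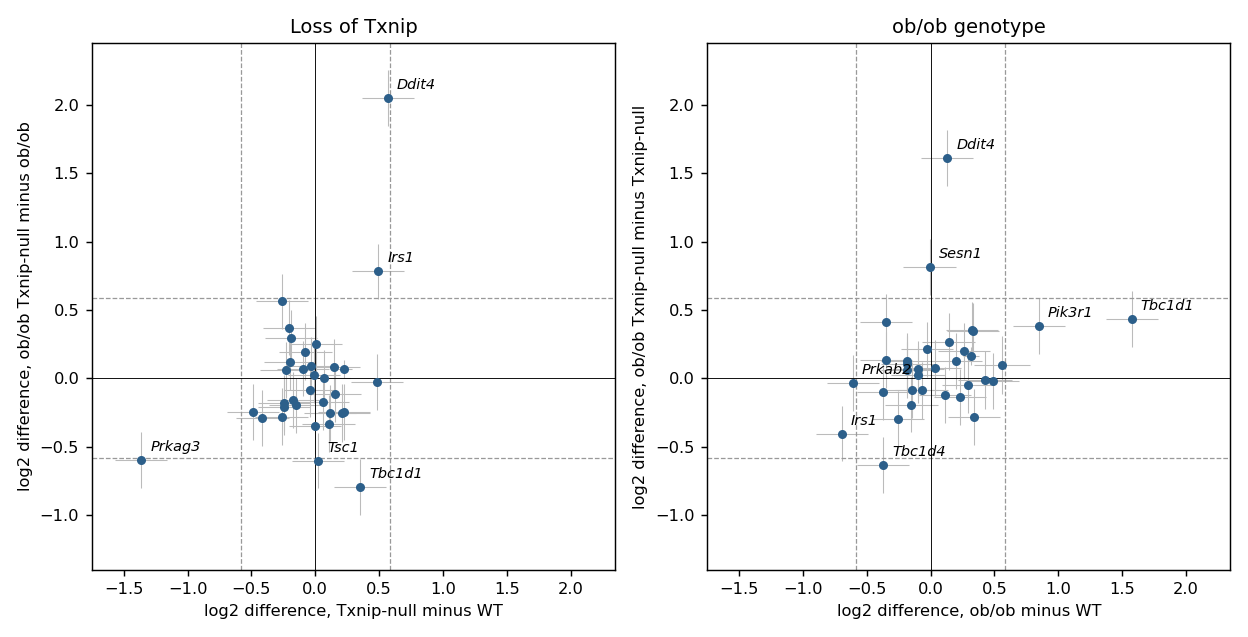
Log2 differences of the 34 genes by brightest probe. One panel sets Txnip loss in ob/ob mice against Txnip loss in lean mice, and the other sets ob/ob without Txnip against ob/ob with Txnip; error bars are SEs of the error model and dashed lines mark 1.5-fold. Ddit4 lies at 0.57 and 2.05 in the former, Prkag3 at -1.36 and -0.60, and Tbc1d1 at 1.58 and 0.43 in the latter.

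The AMPK subunits held the only gene of the set that was 1.5-fold or more different in the same direction in both Txnip comparisons. This was Prkag3, the gamma 3 subunit, which is found mainly in fast glycolytic muscle; of 14908 genes, 0.711% were lower in both. Its signals were 1105, 470.2, 949.8 and 533, from 1 probe at chr1:74674013-74674402 on mm8. Both Txnip-null arrays were lower than both arrays with Txnip. Prkag3 was 2.57-fold lower without Txnip in lean mice (-1.36 ± 0.20, SE) and 1.51-fold lower in ob/ob mice (-0.60 ± 0.20), and the latter difference minus the former was 0.76 ± 0.29. The ob/ob comparisons gave -0.35 with Txnip and 0.41 without it, and the former was 0.29 with spike-in scaling. Markers of fast glycolytic fibres were above background in 9 of 9 cases on every array, with a summed level of 10329.5, 9045, 9133 and 10524 times the 75th percentile, and their median difference was -0.21 in lean and 0.23 in ob/ob mice. With Txnip loss in lean mice all 9 had a difference below 0, none by 1.5-fold, and in obese mice 3 of 9 were below 0. All 5 tendon and all 8 adipocyte markers were higher without Txnip in lean and in ob/ob mice, at the summed levels given for Tbc1d1 and Irs1. Slow fibre markers had a median of -0.09 in lean mice, beside -0.07 for all genes. In ob/ob mice it was -0.52, beside 0.03. The part of fibre types and of other cells in the Prkag3 difference was not tested.

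The sequence before the Prkag3 start site is printed because Prkag3 was the gene of the set lower in both Txnip comparisons; it holds the same E-box letters as that of Tbc1d1. It is on the minus strand at chr1:74748956-74749205 (GRCm38.p6), and capitals mark CAGCTG, which begins 40 bases before the start site.
Prkag3: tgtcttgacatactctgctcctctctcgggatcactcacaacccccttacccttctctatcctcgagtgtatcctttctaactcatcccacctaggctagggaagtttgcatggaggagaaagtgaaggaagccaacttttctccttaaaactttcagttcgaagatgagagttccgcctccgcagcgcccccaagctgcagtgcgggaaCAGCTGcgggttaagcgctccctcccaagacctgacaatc

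Prkag1, the widely expressed gamma 1 subunit, had signals of 4097, 3789.8, 4058 and 3043, with differences between -0.24 and -0.09. Prkaa2, the catalytic subunit that prevails in muscle, had signals of 2569, 2005, 2759 and 1978 and was also lower on both Txnip-null arrays, at -0.49 in lean and -0.25 in ob/ob mice, which is within 1.5-fold. Prkaa1, the other catalytic subunit, had signals of 729, 707, 1006 and 765 and gave 0.33 and 0.34 in the ob/ob comparisons with and without Txnip, where a second probe gave 0.06 and -0.20. Prkab2, the beta subunit of muscle, had signals of 16192, 15375, 11644 and 12807, with its probe at chr3:97758325-97758384 on mm8. The WT array was the highest and the ob/ob array the lowest. Against WT, Prkab2 was 1.52-fold lower in ob/ob (-0.61 ± 0.20, SE), which became -0.39 after quantile normalisation and 0.029 with spike-in scaling, and for ob/ob without Txnip it was -0.03. Prkab1 had signals of 309, 338, 416 and 278, and Stk11, the kinase that activates AMPK, had 5827, 5452, 5622 and 4988. Neither of the latter reached 1.5-fold in any comparison.

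**Figure D4:**
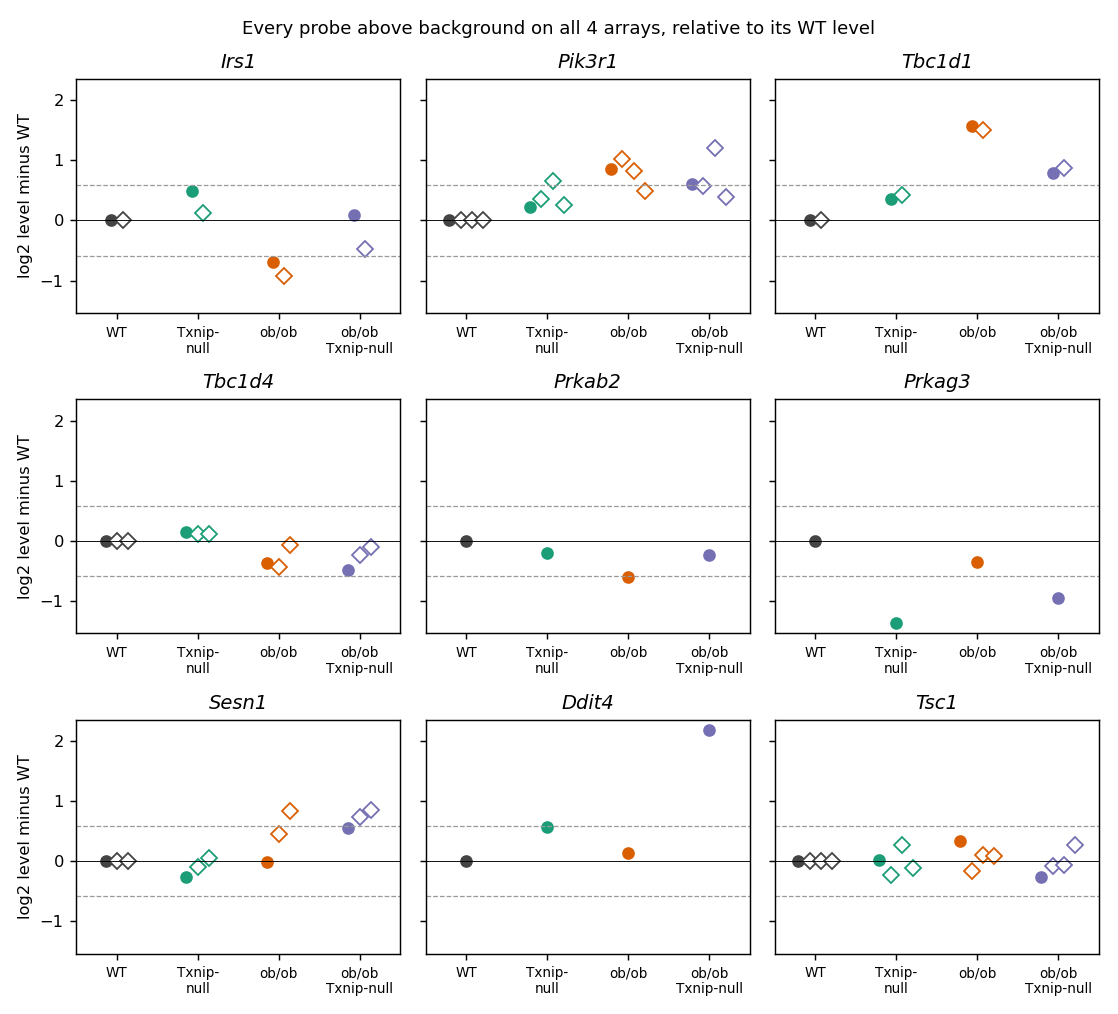
Log2 level minus the WT level on the 4 arrays, for each probe above background on all of them, in the 9 genes that were 1.5-fold or more different in a comparison. Filled circles are the brightest probe, open diamonds the others, and dashed lines mark 1.5-fold; both Tbc1d1 probes peak on the ob/ob array and both Irs1 probes are lowest there, while the Tsc1 probes scatter.

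Probes of 1 gene give a technical check that the number of arrays does not. Among 23 genes with more than 1 probe above background, 121 pairs of a difference by the brightest probe and by another probe could be formed. The median gap was 0.17 on the log2 scale, 9 pairs were apart by over 1.5-fold, and 33 pairs had opposite signs. In each pair of opposite sign the smaller difference was 0.28 or less in size. The 9 pairs belonged to Pik3r1, Pdpk1, Gsk3b, Tsc1, Mtor and Sesn1. Of the 9 genes past 1.5-fold, Ddit4, Prkag3 and Prkab2 had 1 probe above background each and no such check.

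The only fit with a residual degree of freedom is an additive limma model with a Txnip term and an ob/ob term across the 4 arrays. It called 0 of 34 genes for Txnip, where 16 of 16115 genes (0.0993%) passed an adjusted p of 0.05, and 0 of 34 for ob/ob, where 51 genes (0.316%) passed. At an unadjusted p under 0.05 the fit held 3 of the 34 genes for Txnip (Ddit4, Irs1 and Prkag3), beside 9.89% of all genes, and 4 for ob/ob (Irs1, Pik3r1, Tbc1d1 and Tbc1d4), beside 13.7%. The lowest adjusted p of limma was 0.303 for Prkag3 under Txnip (-0.98 ± 0.24, SE) and 0.286 for Tbc1d1 under ob/ob (1.004 ± 0.31). For Irs1 the fitted difference was 0.64 ± 0.17 for Txnip loss and -0.55 ± 0.17 for ob/ob, with limma adjusted p-values of 0.346 and 0.293. Ddit4 had 1.31 ± 0.37 for Txnip loss, with a limma adjusted p of 0.358. With normexp background correction the fit called Ddit4, Irs1 and Prkag3 for Txnip and Ddit4, Irs1 and Tbc1d1 for ob/ob, and with all other settings tried it called none of the set. The SE of this fit is that of limma, not of the scanner software, and does not measure the spread between mice. It combines a gene's departure from additivity with a prior drawn from all genes. Prkaa1, with a departure of 0.013, thus had an SE of 0.16 for Txnip. A gene such as Tbc1d1 or Ddit4, whose Txnip difference was unlike on the 2 backgrounds, carries a larger error in this fit.

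Genes that work beside these in the same pathways, from a list of 110 genes on the array, gave similar counts. In the 4 comparisons 5, 5, 7 and 4 were 1.5-fold or more higher and 3, 4, 7 and 5 lower, of 104, 103, 104 and 105 measured. Of all genes 5.91%, 6.51%, 6.34% and 6.39% were higher and 3.29%, 3.65%, 6.63% and 4.91% lower. The list medians were -0.10, -0.02, -0.04 and 0.02, beside -0.07, 0.03, -0.04 and 0.04 for all genes. None of 105 fitted passed the additive fit in limma for either genotype. Of these genes 6 were 2-fold or more different in a comparison.

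Acaca, the acetyl-CoA carboxylase that AMPK inhibits, had signals of 88.9, 195, 101 and 242 and was higher on both Txnip-null arrays (2.01-fold in lean mice and 1.49 on the log2 scale in obese mice). Slc2a1, the basal glucose transporter, had signals of 776, 363, 1036 and 538 and was lower on both (-1.23 and -0.71). Socs1, a suppressor of cytokine and insulin receptor signalling, had signals of 121.5, 433, 153 and 121.6, so the lean Txnip-null array stood alone (1.70 above WT). Grb14, an adaptor that inhibits the insulin receptor, had signals of 1804.5, 1799, 1196 and 732 and was lower in both ob/ob comparisons (-0.73 and -1.07). Rragb, a Rag GTPase that recruits mTOR to the lysosome, had low signals of 13.4, 12.9, 24.0 and 22.4 and was higher in both (0.70 and 1.03). Trib1, a pseudokinase related to Trib3, had signals of 1596, 2205, 1544 and 922 and was lower in the double mutant than in Txnip-null (-1.03).

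Promoter sequence was matched in RefSeq for 33 of the 35 genes, with 43 start sites. The 250 bases before each start site were searched on both strands. The E-box CAGCTG occurred in 4 of the 43 promoters (Akt2, Grb2, Prkag3 and Tbc1d1), and in 13.0% of 32851 promoters of all genes. The E-box CACGTG occurred in 2 of the 43 (Irs1 and Rheb), beside 6.02% of all promoters. The FoxO motif GTAAACA occurred in 1 (Akt1), beside 3.17%, and the C/EBP-ATF motif TGATGNAA in 1 (Akt2), beside 3.45%. The cyclic AMP response element TGACGTCA (1.55%) and the glucocorticoid response element in its palindromic form (0.387%) had no match in these windows. A match describes letters and not binding.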

How the data were processed

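The platform was a 1-colour Agilent mouse array. The deposited spot intensity values are background-subtracted output of Agilent Feature Extraction 9.5.3.1, per the file headers, with no scaling between arrays. The deposited value table holds log2 values of the same arrays, centred on each probe's median, as comparison with the intensities showed; it was used as an alternative. Per the labels, 0.5 micrograms of RNA were labelled with Cy3.

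The level was log2 of the processed signal minus that of the array's 75th percentile over non-control spots. Outlier spots were left out (78, 62, 59 and 110 on the 4 arrays) and replicate spots averaged; no spot was saturated. A gene was represented by its brightest probe. A difference was taken only where both arrays were well above background, and the thresholds were 1.5-fold and 2-fold. Older names were matched through RefSeq (GRCm38.p6); probe positions are those of the files, on mm8. The additive fit used limma 3.58.1 in R 4.3.3 (lmFit, eBayes; Benjamini-Hochberg adjustment; 1 residual degree of freedom; 3.79 prior degrees of freedom) on genes above background on at least 2 arrays, and was tested on simulated data. In the simulated data the false calls of the fit exceeded the nominal rate, so its adjusted p-values may be somewhat too small. The depth of the comparisons is limited by the number of arrays.

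Every gene of the set 1.5-fold or more different in a comparison was described in full, other pathway genes if 2-fold different, and other lists by counts with up to 4 genes each. The genes and lists were chosen with earlier results of these data known. Alternatives were quantile normalisation, spike-in scaling, normexp background correction (offset 50), the median of a gene's probes, no background filter, genes above background on all 4 arrays, the deposited value table and, added after seeing the data, listed aliases only.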

Additional observations from a re-analysis of the deposited data

Results flagged for a closer look

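Tbc1d1 was singled out because loss of Txnip went with opposite directions on the lean and the ob/ob background, with each difference over 1.2-fold. The log2 difference was 0.35 for Txnip loss in lean mice and -0.79 for Txnip loss in obese mice. With 1 array per genotype the difference between these values was not tested. Both probes of the gene gave these directions, and so did quantile normalisation, spike-in scaling (0.60 and -1.303), normexp correction and the deposited value table.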

How the results depend on the processing

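The number of signalling genes 1.5-fold or more different with Txnip loss in lean mice was 1, and became 3 with quantile normalisation (2 higher, 1 lower), 5 with spike-in scaling (4 higher, 1 lower) and 2 with normexp correction (1 higher, 1 lower). With Txnip loss in obese mice it went from 5 to 19 with spike-in scaling (1 higher, 18 lower). For ob/ob with Txnip it went from 4 to 2 with quantile normalisation (2 higher, 0 lower) and 19 with spike-in scaling (19 higher, 0 lower). Over all genes, spike-in scaling gave 2079 higher and 202 lower, 222 and 5360, 7795 and 150, and 659 and 1180 in the 4 comparisons, in place of 900 and 500, 1006 and 565, 957 and 1000, and 998 and 767. With normexp correction the additive fit called 3 of these genes for Txnip and 3 for ob/ob in place of 0, and 470 and 794 of all genes, with the prior degrees of freedom estimated as infinite; the cause was not tested. Quantile normalisation called 0 genes of the array for either genotype. The Prkab2 difference between ob/ob and WT turned from -0.61 to 0.029 with spike-in scaling. Of the 13 differences past 1.5-fold, 10 stayed past it with spike-in scaling, 11 each with quantile normalisation, normexp correction and the median of probes, and 13 with the other 4 settings. Those that fell short were Irs1, Tsc1, Prkab2 and Tbc1d4; those of Ddit4, Prkag3, Tbc1d1, Pik3r1 and Sesn1 stayed past it in all settings tried. With listed aliases only, the counts were 1, 6, 5 and 3 in place of 1, 5, 4 and 3, the added gene being Insr. No paired analysis was possible because each genotype had 1 array. Dim probes and the single array per genotype limit the precision.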

Other observations

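Of transcripts that FoxO factors are known to raise, 2, 1, 1 and 0 of 18 measured were 1.5-fold or more higher and 1, 1, 2 and 2 lower for Txnip loss in lean mice, Txnip loss in obese mice, ob/ob with Txnip and ob/ob without Txnip, with medians of -0.16, -0.13, 0.03 and -0.07 beside -0.07, 0.03, -0.04 and 0.04 for all genes. Differences were below 0 for 12, 14, 9 and 9 of the 18. Over all genes 5.91%, 6.51%, 6.34% and 6.39% were 1.5-fold or more higher and 3.29%, 3.65%, 6.63% and 4.91% lower. Pdk4, the kinase that shuts off pyruvate oxidation, had signals of 27914, 74243, 8756 and 19557 on the arrays of WT, Txnip-null, ob/ob and the double mutant. It was higher without Txnip (1.28 and 1.39) and lower with ob/ob (-1.81 and -1.69), the directions that Irs1 also had. Bcl6, a repressor that FoxO raises, had signals of 11776.5, 11955, 20557 and 7489 and was -1.22 for Txnip loss in obese mice. Fbxo32, the atrophy ubiquitin ligase, had signals of 8277, 7369, 12948 and 7487 and was within 1.5-fold in every comparison.

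Glucocorticoid-induced transcripts, a class to which Ddit4 belongs, were 1.5-fold or more higher in 3, 4, 3 and 6 of 11 cases. They were lower by as much in 2, 1, 1 and 0. The shares of all genes were 5.91%, 6.51%, 6.34% and 6.39% higher and 3.29%, 3.65%, 6.63% and 4.91% lower. Medians of the 11 transcripts were 0.10, -0.17, 0.23 and 0.62, beside -0.07, 0.03, -0.04 and 0.04 for all genes. Mt2, a metallothionein, had signals of 1898, 4848, 2895 and 15839, and Cebpd, a transcription factor, had 5810, 14316, 7465 and 24693. Both were highest on the double-mutant array and lowest on the WT array, the same order of arrays as Ddit4. For Txnip loss in obese mice, where the Ddit4 difference was 2.05, 6 of the 11 transcripts were below 0. Fkbp5, a chaperone of the glucocorticoid receptor, had signals of 449, 275, 1155 and 619.8 and did not share that order. ATF4 targets, which stress raises and which share inducers with Trib3 and Ddit4, were higher in 4, 4, 3 and 3 of 18 and lower in 0, 2, 2 and 3. Their medians were 0.07, 0.11, 0.07 and 0.11, and the shares and medians of all genes are those just given. Chac1, an enzyme that degrades glutathione, had differences of 1.15 and 1.26 for Txnip loss and -1.42 and -1.31 for ob/ob. Other targets did not share these directions. Atf3 was -1.66 and Phgdh 1.34 for Txnip loss in obese mice, and Nupr1 was 1.17 for ob/ob with Txnip.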
